A study of Mus musculus with 24 samples.

Results

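Expression of 9 genes of neurogenesis and of immature neurons was measured in the hippocampus (HIP) and entorhinal cortex (EC) of Ts65Dn mice, which model Down syndrome, and of wild-type (wt) littermates. The genes are Mki67, Top2a, Eomes, Neurod1, Sox11, Igfbpl1, Dcx, Tubb3 and Draxin. They were taken by symbol from the table of raw counts, which holds 55385 genes, and all 9 symbols matched an identifier. The rule that picks them uses symbols and no measured value.

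The 4 groups compared held 6 libraries each, from 6 males labelled Ts65Dn and 6 wt male littermates aged 5 to 6 months. The groups were wt HIP, Ts65Dn HIP, wt EC and Ts65Dn EC, and each mouse gave 1 HIP and 1 EC library, so that the 24 libraries came from 12 mice. All mice shared the B6C3B hybrid background, and no treatment was named. Ts65Dn mice carry a minichromosome with an extra copy of a distal part of Mmu16, which holds genes homologous to Hsa21, and of a proximal part of Mmu17 that is not homologous to Hsa21. None of the 9 genes lies on either chromosome.

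All 9 are protein-coding. On GRCm38, Mki67 (ENSMUSG00000031004) lies at chr7:135689784-135716361 and Top2a (ENSMUSG00000020914) at chr11:98992943-99024189. Eomes (ENSMUSG00000032446) lies at chr9:118478212-118486132 and Neurod1 (ENSMUSG00000034701) at chr2:79452521-79456751. Sox11 (ENSMUSG00000063632) lies at chr12:27334264-27342574, Igfbpl1 (ENSMUSG00000035551) at chr4:45809468-45826923, Dcx (ENSMUSG00000031285) at chrX:143855842-143933311 and Tubb3 (ENSMUSG00000062380) at chr8:123411424-123422015. Draxin (ENSMUSG00000029005) lies at chr4:148098437-148130698.

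New neurons are made throughout life in the dentate gyrus of the HIP. Radial glia-like stem cells give rise to dividing intermediate progenitors, these give neuroblasts, and neuroblasts mature into granule cells over several weeks. The adult EC is not known as a neurogenic region, although some genes of immature neurons stay on in scattered neurons of the adult cortex. The 9 genes follow this course from division to growth of the axon. Mki67 encodes the antigen Ki-67 of dividing cells, and Top2a encodes the topoisomerase II alpha of replicating and mitotic cells. Eomes (also called Tbr2) is the T-box transcription factor of intermediate progenitors, and Neurod1 is a basic helix-loop-helix factor needed for granule neurons to survive and mature. Sox11 is a transcription factor of newly committed neurons, Igfbpl1 encodes a secreted protein related to the insulin-like growth factor binding proteins, Dcx encodes the microtubule-associated doublecortin of migrating neuroblasts, and Tubb3 encodes the neuronal beta tubulin that mature neurons also contain. Draxin encodes a secreted protein that guides axons and binds netrin receptors.

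The promoters of Mki67 and Top2a are shown because these are the members of the cell cycle, which were both higher in the HIP than in the EC. Each sequence is the 250 bases before the RefSeq transcription start on GRCm38.p6, read 5′ to 3′ on the strand of the gene, at chr7:135716380-135716629 (minus strand) for Mki67 and at chr11:99024190-99024439 (minus strand) for Top2a. Both windows lie outside annotated exons. The capitals mark the letters CCAAT or ATTGG, the core of the CCAAT box on either strand, and TTTGAA or TTCAAA, the core of the cell cycle genes homology region (CHR) on either strand.
Mki67: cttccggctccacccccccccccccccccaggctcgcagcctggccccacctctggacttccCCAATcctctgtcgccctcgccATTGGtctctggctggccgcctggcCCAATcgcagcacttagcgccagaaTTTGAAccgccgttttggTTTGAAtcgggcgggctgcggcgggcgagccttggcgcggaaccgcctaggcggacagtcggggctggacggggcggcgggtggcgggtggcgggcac
Top2a: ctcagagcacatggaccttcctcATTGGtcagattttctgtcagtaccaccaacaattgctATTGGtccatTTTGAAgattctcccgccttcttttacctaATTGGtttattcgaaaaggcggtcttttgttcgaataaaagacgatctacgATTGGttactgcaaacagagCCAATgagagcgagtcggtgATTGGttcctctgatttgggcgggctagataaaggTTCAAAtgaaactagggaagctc
The Mki67 window held 3 CCAAT cores and 2 CHR cores, and the Top2a window held 6 CCAAT cores and 2 CHR cores. Of 32851 RefSeq promoter windows of the same length, 2.79% held at least 3 CCAAT cores and 1.81% held at least 2 CHR cores. The full-length window of Eomes held 2 CCAAT cores, and that of Sox11 held 1 CCAAT and 1 CHR core. A match is a run of letters and was not tested as a binding site. The E2F letters TTTCGCGC and TTTCCCGC, searched on both strands, were in 0.256% and 0.895% of all windows. They were in none of the windows of the 8 members that had one, which at such shares says little. Igfbpl1 had no promoter entry.

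Total counts on genes ranged from 23128589 to 40476492 per library. Genes of the distal Mmu16 segment gave a check of the genotype. In the HIP, their median fold over the wt mean was 1.42 to 1.53 for 5 Ts65Dn libraries and 0.984 to 1.01 for wt libraries, and in the EC it was 1.46 to 1.52 for 5 Ts65Dn libraries and 0.989 to 1.01 for wt libraries. The mouse labelled Ts65Dn replicate 3 lay apart from its group and near the wt level, at 1.02 in its HIP and 1.0 in its EC library. The label of that mouse was kept, and results with and without it are given where it matters. Of 6 markers of hippocampal identity, 5 were higher and 1 lower in the HIP than in the EC, and all 6 markers of entorhinal and neocortical identity were lower, in both genotypes. HIP libraries differed widely in markers of choroid plexus and ependyma. The summed level of 5 such markers ranged from 97.4 to 4816 CPM (counts per 1000000 counts of the library, scaled by the TMM method over all libraries) in the wt HIP and from 61.4 to 5038 CPM in the Ts65Dn HIP, against 10.9 to 51.7 CPM in the EC. Both regions were bulk tissue, in which fewer cells of a type and less RNA per cell cannot be told apart.

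The 9 genes covered a wide span of expression. Per kilobase of exon, Tubb3 was the highest in the wt HIP, at a mean of 102 CPM per kilobase, followed by Neurod1 at 8.53, Sox11 at 1.5 and Dcx at 1.37. Below them came Igfbpl1 at 0.701, Eomes at 0.382, Mki67 at 0.230, Top2a at 0.204 and Draxin at 0.186 CPM per kilobase. From Sox11 downwards, the range of each gene over the 6 libraries overlapped that of its neighbour in this order. Whether neighbours differed within libraries was not tested. The wt EC had the same genes at the top, with Tubb3 at 196, Neurod1 at 6.95, Dcx at 2.57 and Sox11 at 1.22 CPM per kilobase, each apart from the next in all libraries. At the bottom of the wt EC stood Igfbpl1 at 0.0229 and Eomes at 0.00554 CPM per kilobase, which overlapped each other. In Ts65Dn the leading 4 genes had the same order as in wt within each region.

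**Figure D1:**
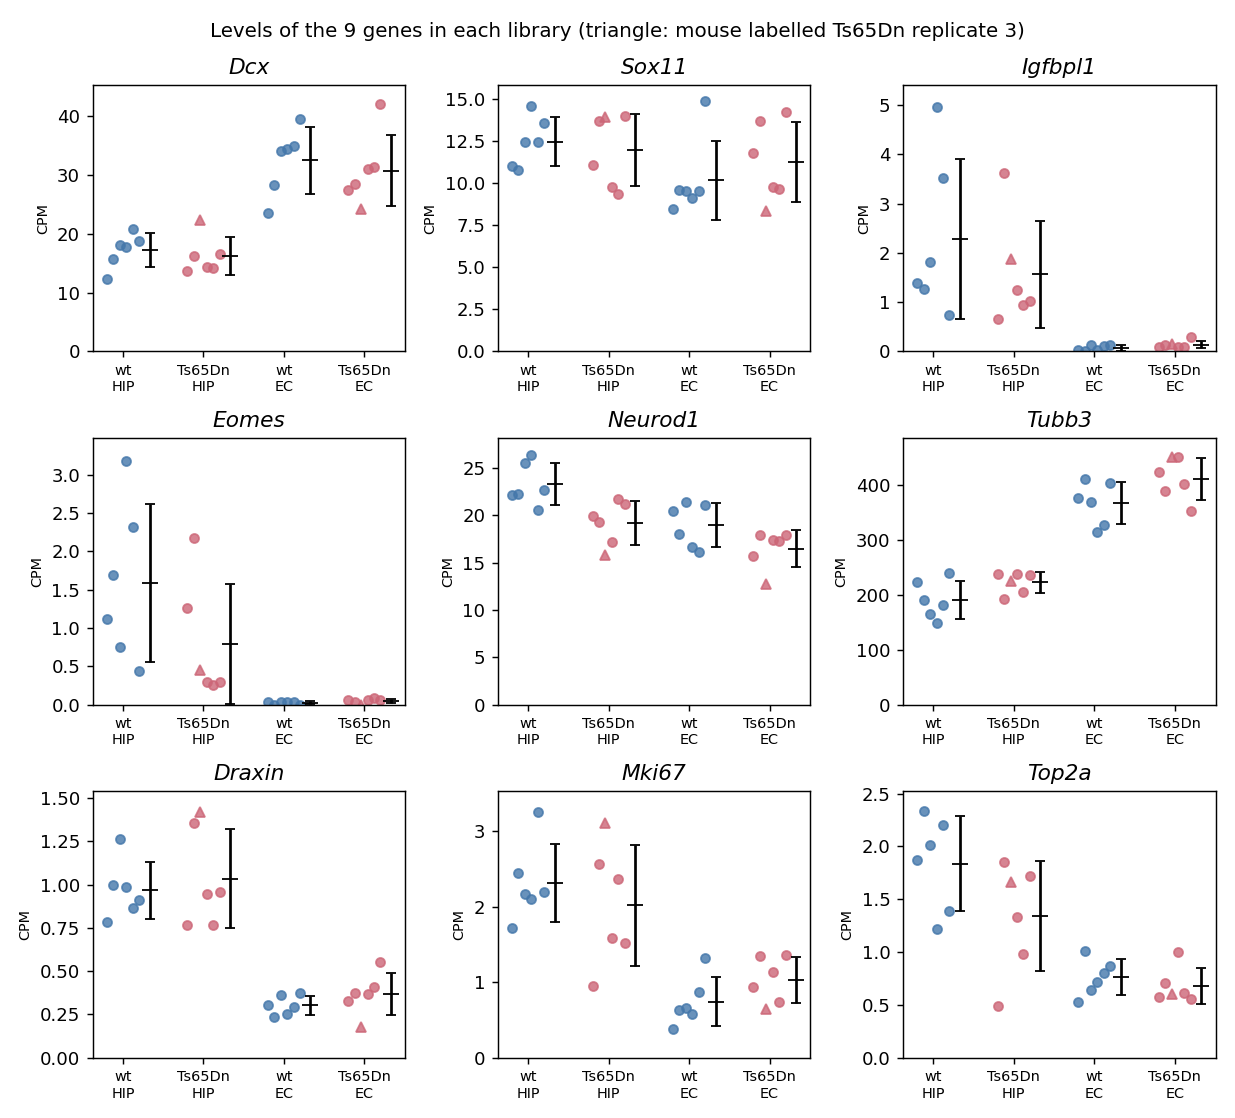
Level of each of the 9 genes in CPM (vertical axis, linear and from 0, scaled per panel) in the 24 libraries, by genotype and region. Each point is 1 library, the bar is the mean ± SD of 6 libraries, and the triangle is the mouse labelled Ts65Dn replicate 3. Dcx and Tubb3 lie higher in the EC, Igfbpl1 and Eomes are near 0 in the EC and spread widely in the HIP, and wt and Ts65Dn overlap in every panel.

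The regions were compared within mice, in a model with a term for each mouse. Of the 9 genes, 6 passed the filter on low counts within each region. Eomes, Igfbpl1 and Draxin did not pass it within the EC and entered the test through the HIP, where they were high, so they had to differ and their values are given as a description. In wt mice all 6 others differed between the HIP and the EC, 4 higher and 2 lower in the HIP (edgeR's quasi-likelihood test, Benjamini-Hochberg adjusted p under 0.05). Of all 17196 genes tested, 61.3% passed in either direction, 31% as higher and 30.3% as lower in the HIP. Over the 6 wt libraries of each region, 4 of these 6 genes did not overlap, against 34.3% of all genes tested.

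The genes of dividing cells were higher in the wt HIP. Mki67 ranged from 1.72 to 3.25 CPM (median 2.18) in the wt HIP and from 0.379 to 1.33 CPM (median 0.651) in the wt EC, with no overlap. Its log2 fold change was 1.67 (standard error, SE, 0.19, adjusted p = 3.33e-05). For Top2a, too, every HIP library lay above every EC library. It ranged from 1.22 to 2.33 CPM (median 1.94) in the wt HIP and from 0.531 to 1.01 CPM (median 0.760) in the wt EC, a log2 fold change of 1.26 (SE 0.19, adjusted p = 0.000178). Mki67 and Top2a were higher in the HIP in 6 of 6 wt mice. Both genes rested on few reads, 440 counts of Mki67 and 350 of Top2a over the 6 wt HIP libraries and 125 and 130 over the wt EC.

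Of the progenitor and fate factors, Eomes differed most and Neurod1 least. Eomes ranged from 0.439 to 3.19 CPM (median 1.41) in the wt HIP, whereas no wt EC library had more than 1 count. Over all 6 mice there were 305 counts in the HIP and 4 in the EC, a ratio of CPM of 70.1, for which counting alone gave a 95% interval from 27.1 to 258.9. An antisense gene that shares 118 exon bases with Eomes, Gm33460, had 1 count in all 24 libraries. Neurod1, which mature excitatory neurons also express, was well measured in both regions. It ranged from 20.6 to 26.4 CPM (median 22.5) in the wt HIP and from 16.1 to 21.4 CPM (median 19.2) in the wt EC. The ranges overlapped, yet the HIP was higher in 6 of 6 wt mice, with a log2 fold change of 0.29 (SE 0.07, adjusted p = 0.00395). The exons of Neurod1 share 201 bases with Cerkl on the same strand, a gene that did not pass the test itself (log2 fold change 0.34, adjusted p = 0.116).

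Among the genes of immature neurons the direction differed from gene to gene. Igfbpl1 had few counts in the EC, with 0.743 to 4.95 CPM (median 1.60) in the wt HIP and 0 to 0.139 CPM (median 0.0734) in the wt EC. The HIP held 422 counts and the EC 13, a ratio of CPM of 29.8 (95% counting interval 17.3 to 56.5). Dcx went the other way and was lower in the HIP in 6 of 6 wt mice. It ranged from 12.3 to 20.8 CPM (median 18) in the wt HIP and from 23.6 to 39.6 CPM (median 34.2) in the wt EC, with no overlap. Its log2 fold change was -0.92 (SE 0.05, adjusted p = 1.96e-07), a level in the HIP of 0.530 times that in the EC. Tubb3 shared this direction. Its level was 148.2 to 238.8 CPM (median 185.9) in the wt HIP and 314.5 to 410.1 CPM (median 372.5) in the wt EC, and the log2 fold change was -0.96 (SE 0.06, adjusted p = 4.07e-07). Sox11 differed little, with 10.8 to 14.6 CPM (median 12.4) in the wt HIP against 8.46 to 14.9 CPM (median 9.51) in the wt EC. The HIP was higher in 5 of 6 wt mice, at a log2 fold change of 0.30 (SE 0.09, adjusted p = 0.0174). Sox11 lost its call without wt replicate 3 (adjusted p = 0.0532) and without the term for each mouse (adjusted p = 0.0716).

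Draxin ranged from 0.787 to 1.26 CPM (median 0.948) in the wt HIP and from 0.235 to 0.373 CPM (median 0.297) in the wt EC. These ranges did not overlap, and the fitted log2 fold change was 1.67 (SE 0.20). The span of Draxin contains Mad2l2 on the opposite strand without sharing exon bases, and Mad2l2 did not pass the test (log2 fold change 0.13, adjusted p = 0.301).

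**Figure D2:**
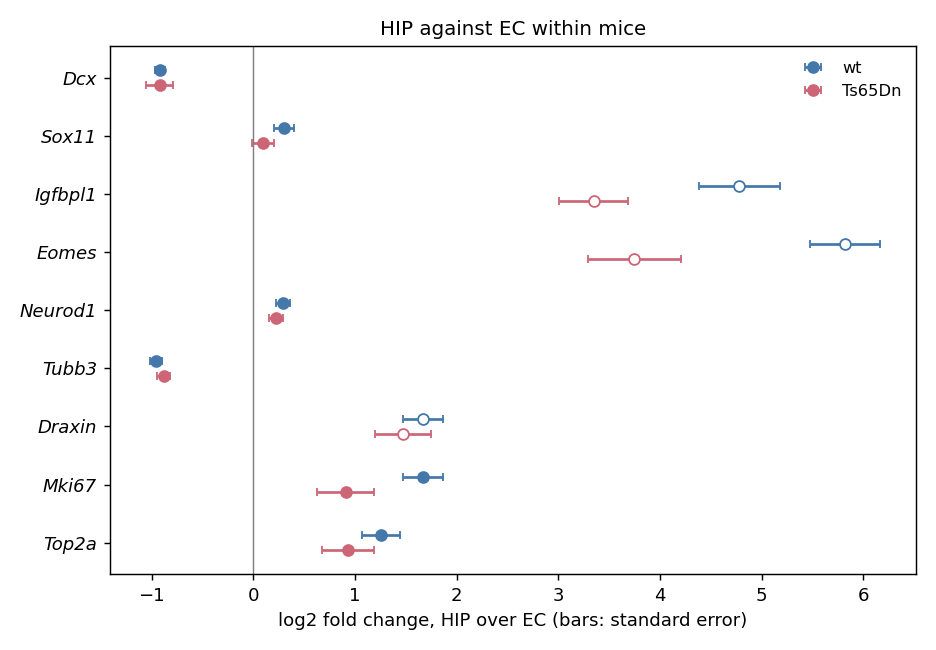
Log2 fold change of HIP over EC within mice (horizontal axis) for each of the 9 genes, in wt (blue) and Ts65Dn (red), with bars of 1 standard error, 6 mice each. Eomes and Igfbpl1 lie far to the right, Mki67, Draxin and Top2a are moderately higher in the HIP, and Dcx and Tubb3 are lower at -0.92 and -0.96 in wt; open points are Eomes, Igfbpl1 and Draxin, which did not pass the filter on low counts within the EC and whose fitted values depend on the prior count.

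In Ts65Dn mice 5 of the same 6 genes differed between the regions, 3 higher and 2 lower in the HIP. Of all 17314 genes tested in Ts65Dn, 52.3% passed, 26.6% as higher and 25.7% as lower. Without the mouse labelled Ts65Dn replicate 3, 5 of the 6 genes passed as well.

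The 2 genes of dividing cells were higher in the Ts65Dn HIP with more spread between mice than in wt. Mki67 ranged from 0.944 to 3.11 CPM (median 1.98) in the HIP and from 0.643 to 1.36 CPM (median 1.04) in the EC. The ranges overlapped, and the log2 fold change was 0.91 (SE 0.28, adjusted p = 0.0194), which fell to 0.65 without the mouse labelled Ts65Dn replicate 3 (adjusted p = 0.0458) and did not pass without Ts65Dn replicate 5 (adjusted p = 0.0658). Top2a also overlapped between the regions. It ranged from 0.490 to 1.86 CPM (median 1.49) in the Ts65Dn HIP and from 0.552 to 1.0 CPM (median 0.611) in the Ts65Dn EC, with a log2 fold change of 0.93 (SE 0.25, adjusted p = 0.0105). Mki67 was higher in the HIP in 6 of 6 Ts65Dn mice and Top2a in 5 of 6.

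Eomes had 146 counts in the Ts65Dn HIP and 9 in the Ts65Dn EC, a ratio of CPM of 16.8 (95% counting interval 8.63 to 37.5), and lay higher in the HIP in 6 of 6 mice. Fitted without the filter on low counts, its log2 fold change was 3.75 (SE 0.46). That value rests on the 9 EC counts and is given as a description only. Neurod1 differed by little in Ts65Dn. It ranged from 15.8 to 21.7 CPM (median 19.6) in the HIP and from 12.8 to 17.9 CPM (median 17.3) in the EC, at a log2 fold change of 0.22 (SE 0.06, adjusted p = 0.0144). That call was lost without the term for each mouse (adjusted p = 0.0660), without Ts65Dn replicate 5 (adjusted p = 0.0521) and under a minimum fold change of 1.2.

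Igfbpl1 ranged from 0.664 to 3.62 CPM (median 1.13) in the Ts65Dn HIP and from 0.0820 to 0.292 CPM (median 0.118) in the Ts65Dn EC. These 282 against 25 counts gave a ratio of CPM of 11.7 (95% counting interval 7.77 to 18.4). Dcx and Tubb3 were again lower in the HIP, each in 6 of 6 mice and without overlap. Dcx ranged from 13.7 to 22.3 CPM (median 15.3) in the Ts65Dn HIP and from 24.3 to 42.1 CPM (median 29.7) in the Ts65Dn EC, and its log2 fold change was -0.92 (SE 0.13, adjusted p = 0.000237). Tubb3 ranged from 192.3 to 238.2 CPM (median 230.3) in the HIP and from 352.0 to 450.7 CPM (median 411.7) in the EC, and its log2 fold change was -0.88 (SE 0.06, adjusted p = 1.69e-06). Sox11 was not called in Ts65Dn. It ranged from 9.36 to 14.0 CPM (median 12.4) in the HIP and from 8.36 to 14.2 CPM (median 10.8) in the EC (log2 fold change 0.10, SE 0.11, adjusted p = 0.475), and the HIP was higher in 2 of 6 mice. Draxin ranged from 0.765 to 1.42 CPM (median 0.951) in the Ts65Dn HIP and from 0.179 to 0.552 CPM (median 0.370) in the EC, without overlap (fitted log2 fold change 1.47, SE 0.28). Of the 6 genes, Dcx and Tubb3 did not overlap between the regions in Ts65Dn, as did 27.2% of all genes tested. Igfbpl1, Draxin and Eomes did not overlap either, with Eomes at 0.255 to 2.18 CPM in the HIP and 0 to 0.0820 CPM in the EC.

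Genotypes were then compared within each region, which asks whether the extra chromosome goes with another level of these genes. In the HIP, 0 of the 9 genes tested differed between Ts65Dn and wt by edgeR, against 1.04% of all 17355 genes, and DESeq2 called 0 of the 9 as well. Only 1 of them, Neurod1, had an unadjusted p under 0.05, as did 14.8% of all genes. The 6 Ts65Dn and 6 wt libraries overlapped for all 9 genes, whereas 1.69% of all genes tested did not overlap. With the mouse labelled Ts65Dn replicate 3 left out, 0 of the 9 passed in the HIP and 0 of the 6 tested passed in the EC. On simulated counts for the HIP, 52.5% of genes changed 1.5-fold and 85% of genes changed 2-fold were recovered, so changes of that size can be missed. The changed genes were drawn at random from all those tested, with the change in every Ts65Dn library. These rates are therefore not rates for the 9 genes.

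Neurod1 was at 19.2 ± 2.28 CPM in the Ts65Dn HIP against 23.3 ± 2.22 CPM in the HIP of wt mice (mean ± SD of 6 mice each). The log2 fold change of -0.28 (SE 0.09) had an unadjusted p of 0.00584 and an adjusted p of 0.144 by edgeR's quasi-likelihood test. The lowest library was that of the mouse labelled Ts65Dn replicate 3, at 15.8 CPM, and without this mouse the value was -0.23 (adjusted p = 0.166). Eomes and Igfbpl1 had the largest fold changes of the 9 genes and also the largest spread. Eomes was at 0.790 ± 0.779 CPM in the Ts65Dn HIP and 1.59 ± 1.03 CPM in the wt HIP (log2 fold change -0.98, SE 0.57, adjusted p = 0.463). Igfbpl1 was at 1.56 ± 1.09 and 2.28 ± 1.62 CPM (log2 fold change -0.53, SE 0.48, adjusted p = 0.654). Both values turned on single mice. Eomes was at -1.62 without Ts65Dn replicate 2 (adjusted p = 0.168) and at -0.66 without wt replicate 4, and Igfbpl1 at -0.98 and -0.15 without these mice.

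The genes of dividing cells had lower means in the Ts65Dn HIP, within the spread of the mice. Mki67 was at 2.02 ± 0.800 CPM against 2.31 ± 0.513 CPM in wt (log2 fold change -0.20, SE 0.25, adjusted p = 0.759), and at -0.37 without the mouse labelled Ts65Dn replicate 3 (adjusted p = 0.470), whose 3.11 CPM was the highest of its group. It was at -0.05 without Ts65Dn replicate 1. Top2a was at 1.34 ± 0.522 against 1.84 ± 0.446 CPM (log2 fold change -0.45, SE 0.27, adjusted p = 0.477), and at -0.57 without Ts65Dn replicate 2 and -0.28 without Ts65Dn replicate 1. Dcx was at 16.2 ± 3.23 against 17.3 ± 2.92 CPM (log2 fold change -0.09, SE 0.14, adjusted p = 0.807), and at -0.21 without the mouse labelled Ts65Dn replicate 3 (adjusted p = 0.394), whose 22.3 CPM was again the highest. It was at -0.03 without wt replicate 5. Sox11 was at 12.0 ± 2.15 against 12.5 ± 1.46 CPM (log2 fold change -0.06, SE 0.12, adjusted p = 0.862). Tubb3 and Draxin had slightly higher means in Ts65Dn that did not pass either, with log2 fold changes of 0.22 (SE 0.10, adjusted p = 0.350) and 0.10 (SE 0.20, adjusted p = 0.860). The value of Draxin was -0.01 without the mouse labelled Ts65Dn replicate 3.

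In the EC, 6 of the 9 genes passed the filter on low counts and 0 of the 6 differed between genotypes by edgeR or DESeq2, against 2.5% of all 17049 genes. Neurod1 was again the 1 gene with an unadjusted p under 0.05, which 19% of all genes had. It was at 16.5 ± 1.98 CPM in the Ts65Dn EC and 19.0 ± 2.31 CPM in the wt EC (log2 fold change -0.22, SE 0.10, adjusted p = 0.232), and at -0.16 without the mouse labelled Ts65Dn replicate 3 (adjusted p = 0.331). The HIP and EC values of Neurod1 come from the same mice and are not independent of each other. Mki67 was at 1.03 ± 0.307 CPM in the Ts65Dn EC against 0.743 ± 0.326 CPM in wt (log2 fold change 0.47, SE 0.28, adjusted p = 0.393). The other tested genes had log2 fold changes from -0.18 for Top2a to 0.15 for Tubb3, with adjusted p from 0.302 for Tubb3 to 0.763 for Dcx. Igfbpl1, Eomes and Draxin, with 13, 4 and 52 counts over the 6 wt EC libraries and 25, 9 and 66 over the Ts65Dn EC, could be fitted only without the filter. Their log2 fold changes were then 0.84 for Igfbpl1 (SE 0.56), 0.97 for Eomes (SE 0.74) and 0.27 for Draxin (SE 0.31), with adjusted p between 0.559 and 0.706. All 6 genes tested overlapped between genotypes, and 2.41% of all genes did not.

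**Figure D3:**
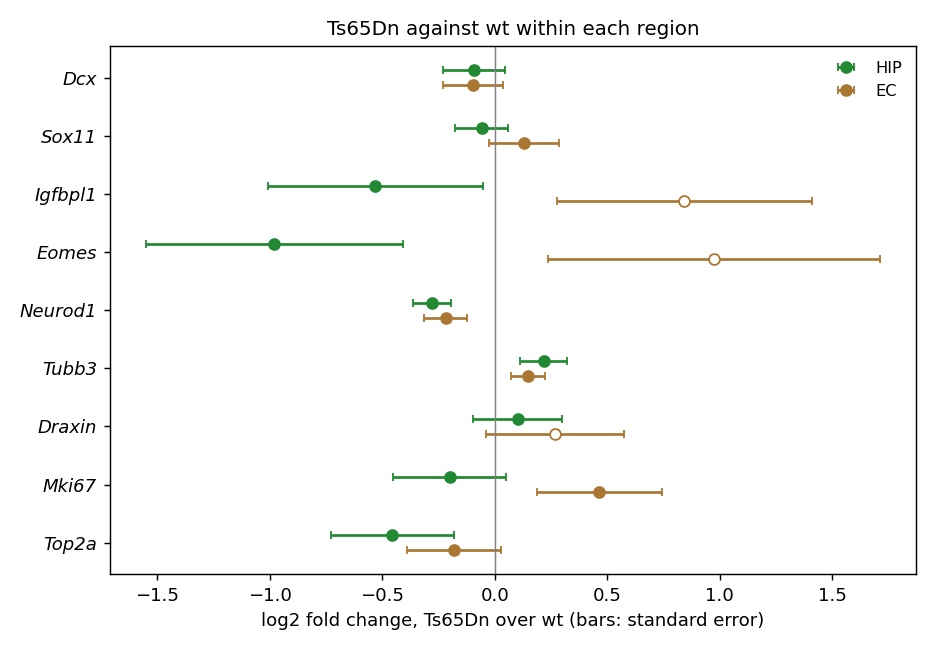
Log2 fold change of Ts65Dn over wt (horizontal axis) for each of the 9 genes in the HIP (green) and EC (brown), with bars of 1 standard error, 6 against 6 mice. No gene passed the adjusted threshold; Neurod1 is at -0.28 (HIP) and -0.22 (EC), the widest bars belong to Eomes and Igfbpl1, and open points are genes fitted only without the filter on low counts.

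Whether the genotype difference itself differed between the regions was tested as an interaction over all 24 libraries with a term for each mouse. None of the 9 genes passed, and 0 of all 18109 genes (0%) did. An unadjusted p under 0.05 was found for 1 of the 9 genes, Eomes, and for 4.1% of all genes. The interaction was -2.02 on the log2 scale for Eomes (SE 0.91), -1.42 for Igfbpl1 (SE 0.68) and -0.76 for Mki67 (SE 0.37), each with an adjusted p of 1.0 from edgeR's quasi-likelihood test. For Mki67 it was -1.02 without the mouse labelled Ts65Dn replicate 3 and -0.60 without Ts65Dn replicate 6. These were its extremes when each mouse was left out, and Mki67 was not called in any of these fits. Eomes and Igfbpl1 entered this test through the HIP, so their interaction values are a description. In the wt and Ts65Dn EC they rest on 4 and 9 counts of Eomes and on 13 and 25 counts of Igfbpl1. DESeq2 called 0 of the 9 genes. Hence the smaller HIP over EC ratios of Eomes, Igfbpl1 and Mki67 in Ts65Dn were not shown to differ from those in wt.

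The 9 genes varied unequally between mice of the same genotype in the HIP. Neurod1, Sox11, Dcx, Tubb3 and Draxin had coefficients of variation between 9.52% and 18.1% in the wt HIP, whereas Igfbpl1 had 71.0% and Eomes 65.2%. In the wt HIP the highest library exceeded the lowest 6.66 times for Igfbpl1 and 7.26 times for Eomes, and in the Ts65Dn HIP 5.45 and 8.55 times. The same libraries were the highest for both genes. Replicate 4 of wt had 4.95 CPM of Igfbpl1 and 3.19 CPM of Eomes, wt replicate 5 had 3.52 and 2.32 CPM, and Ts65Dn replicate 2 had 3.62 and 2.18 CPM. The choroid plexus and ependyma markers summed to 2266 CPM in wt replicate 4 and 2361 CPM in Ts65Dn replicate 2. In wt replicate 5 they were at 97.4 CPM, the lowest of its group. Their ranges were 97.4 to 4816 CPM over the wt HIP and 61.4 to 5038 CPM over the Ts65Dn HIP. The subventricular and olfactory neuroblast markers summed to 48.2, 52.7 and 42.8 CPM in wt replicates 4 and 5 and Ts65Dn replicate 2. That was at the top of 36.7 to 52.7 CPM over the wt HIP and within 39.4 to 46.8 CPM over the Ts65Dn HIP. The summed level of 7 dentate granule cell markers was 685.1, 603.5 and 781.1 CPM in these libraries, within 582.4 to 696.2 CPM over the wt HIP and at the top of 506.8 to 781.1 CPM over the Ts65Dn HIP. Whether the dissection took part in this spread was not tested.

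Correlations between the members were computed over the 12 HIP libraries on log2 CPM, 36 pairs in all. An unadjusted permutation p of r under 0.05 was found for 8 pairs, and 0 passed the Benjamini-Hochberg adjustment. Igfbpl1 and Eomes had a Pearson's r of 0.68 (permutation p = 0.0168, adjusted p = 0.122) and a Spearman's rho of 0.66 (permutation p = 0.022, adjusted p = 0.268). Without the 2 libraries farthest from the median of Igfbpl1, r was 0.43, and within genotypes it was 0.85 in wt and 0.46 in Ts65Dn. For Igfbpl1 and Tubb3 r was -0.77 (permutation p = 0.00386, adjusted p = 0.122) and rho -0.72 (permutation p = 0.011, adjusted p = 0.268), with r of -0.63 without the 2 farthest libraries, -0.84 in wt and -0.65 in Ts65Dn. Eomes and Tubb3 had an r of -0.66 (permutation p = 0.019, adjusted p = 0.122) and a rho of -0.64 (permutation p = 0.0288, adjusted p = 0.268), with r of -0.62 without the 2 farthest libraries. Dcx and Sox11 had an r of 0.69 (permutation p = 0.015, adjusted p = 0.122) and a rho of 0.62 (permutation p = 0.0347, adjusted p = 0.268), with r of 0.68 without the 2 farthest libraries, 0.64 in wt and 0.73 in Ts65Dn. Dcx and Mki67 had an r of 0.68 (permutation p = 0.0147, adjusted p = 0.122) and rho of 0.57 (permutation p = 0.0596, adjusted p = 0.268), which was 0.64 without the 2 farthest libraries, 0.76 in wt and 0.67 in Ts65Dn. Mki67 and Top2a had an r of 0.68 (permutation p = 0.0204, adjusted p = 0.122) and a rho of 0.51 (permutation p = 0.0946, adjusted p = 0.296). That relation depended on which libraries were used, with r of 0.09 without the 2 farthest, 0.43 in wt and 0.70 in Ts65Dn. The other pairs under 0.05 were Dcx with Draxin, at an r of 0.60 that was 0.32 without the 2 farthest libraries, and Neurod1 with Tubb3, at an r of -0.64.

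**Figure D4:**
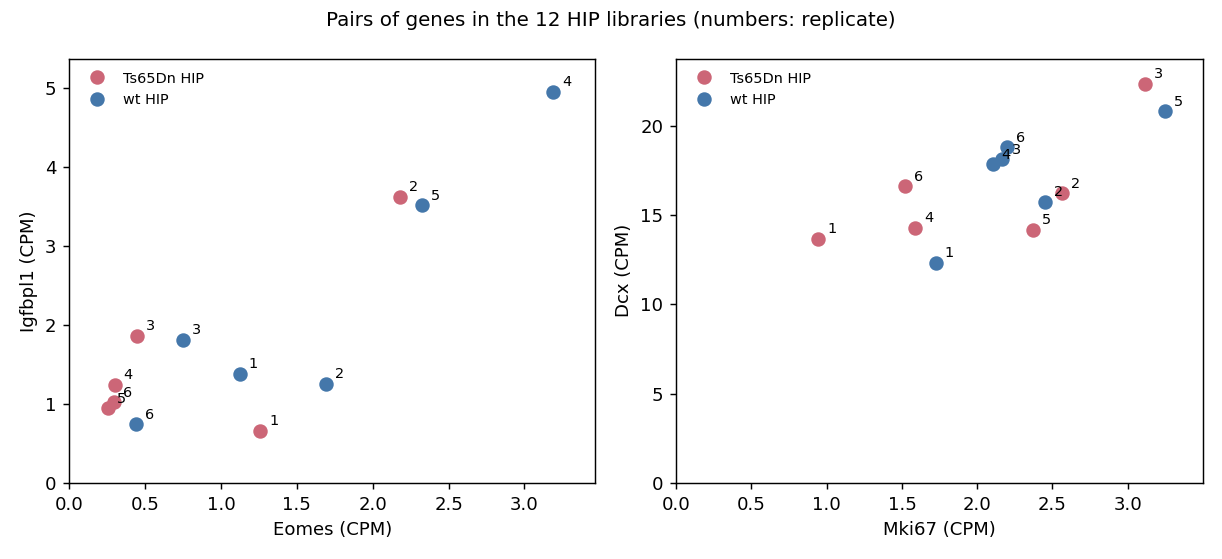
Igfbpl1 against Eomes (left) and Dcx against Mki67 (right), in CPM on linear axes, in the 12 HIP libraries, with wt in blue, Ts65Dn in red and the replicate number beside each point. Replicates 4 and 5 of wt and replicate 2 of Ts65Dn are high for both Igfbpl1 and Eomes, and Ts65Dn replicate 3 and wt replicate 5 are high for both Dcx and Mki67.

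As a description, the genes whose log2 CPM followed Dcx most closely over the 12 HIP libraries were Meltf (r = 0.92), Tnrc6a (0.91), Pcgf6 (0.90), Zkscan2 (0.90) and Pan2 (0.89). Those closest to Mki67 were Zfp182 (r = 0.90), Elovl5 (0.90), Ptprd (0.89), 4930429F24Rik (0.89) and Gm37691 (0.88). None of these 10 genes is a member or in the gene lists. The libraries share tissue composition and depth, and with 12 libraries high values arise among the many genes compared.

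Other genes of the pathway were read from lists. Of all genes tested between regions, 61.3% passed in wt (31% higher, 30.3% lower) and 52.3% in Ts65Dn (26.6% and 25.7%). The counts between regions for each list are to be read against these shares. Of 12 genes of neural stem and radial glia-like cells, 7 were higher and 1 lower in the wt HIP, with a median log2 fold change of 0.28 against 0.00 over all genes. Hopx, a homeodomain protein of quiescent stem cells and astrocytes, was at 1.26 (SE 0.06, adjusted p = 8.6e-08), Lpar1, a lysophosphatidic acid receptor that oligodendrocytes also express, at 1.38, and Thrsp at 1.0. Hes5, an effector of Notch signalling, was lower in the HIP, at -1.30 (SE 0.10, adjusted p = 1.21e-06). In Ts65Dn 8 were higher and 1 was lower, and the same 4 genes had the lowest adjusted p, with Hopx at 1.24 and Hes5 at -1.51.

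Of 10 other transcription factors of progenitors and neuronal fate, 5 were higher and 3 lower in the wt HIP (median log2 fold change 0.29). Prox1, the factor of dentate granule cells, was at 3.47 (SE 0.05, adjusted p = 2.06e-10), and Neurod6 and Neurod2, relatives of Neurod1 in excitatory neurons, were at 1.85 and 1.07. Tbr1, a T-box relative of Eomes in cortical neurons, was lower at -1.58 (SE 0.08, adjusted p = 1.43e-07). In Ts65Dn, 6 of the 9 tested were higher and 3 lower, with Prox1 at 3.36, Neurod6 at 1.87, Neurod2 at 1.10 and Tbr1 at -1.45. Neurog2, counted as higher in Ts65Dn, did not pass the filter on low counts within the EC, so its call is a description only. Of 15 other genes of immature neurons, 6 were higher and 6 lower in the wt HIP, with a median of 0.00. The 4 with the lowest adjusted p were all lower in the HIP and are also expressed by mature cortical neurons. They were Gap43 of the growth cone at -1.60 (SE 0.05, adjusted p = 3.67e-09), the tubulin-binding Stmn1 at -1.53 and Stmn2 at -0.29, and the RNA-binding Elavl4 at -0.77. In Ts65Dn 2 were higher and 6 lower, with Gap43 at -1.71 and Stmn1 at -1.52.

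Of 25 other cell cycle genes, 18 were tested in wt, of which 11 were higher and 2 lower in the HIP (median 0.41). Mcm6 of the replicative helicase was at 1.19 (SE 0.10, adjusted p = 2.32e-06), the kinetochore genes Cenpf and Cenpe at 1.39 and 0.93, and Tyms of thymidylate synthesis at 1.11. In Ts65Dn, 9 of 20 were higher and 2 lower (median 0.39), and without the mouse labelled Ts65Dn replicate 3 the counts were 5 and 2. There Mcm6 was at 0.92, Cenpf at 1.09, Cenpe at 0.97 and Tpx2, a spindle assembly factor, at -0.54. Bub1b, counted as higher in both genotypes, did not pass the filter on low counts within the EC, so its calls are a description only. In the doublecortin and tubulin family, 1 of 9 was higher and 6 were lower in the wt HIP, beside Dcx and Tubb3 themselves. Tubb5 was at -0.98 (SE 0.05, adjusted p = 9.04e-08), Dclk1 at -0.62 and Tubb4b at -0.49, whereas Dclk2 was higher at 0.60. In Ts65Dn 1 was higher and 5 were lower, with Tubb5 at -0.94, Dclk1 at -0.57, Tuba1a at -0.72 and Dclk2 at 0.68. Of 9 genes of netrins and netrin receptors, to which Draxin binds in part, 4 were higher and 4 lower in the wt HIP. Unc5b was higher at 1.49 (SE 0.07, adjusted p = 6.42e-08), Dcc at 0.69 and Unc5c at 0.30, and Unc5d was lower at -1.60. In Ts65Dn 3 were higher and 2 lower, with Unc5b at 1.41, Unc5d at -1.30, Dcc at 0.78 and Ntn3 at -0.42.

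**Figure D5:**
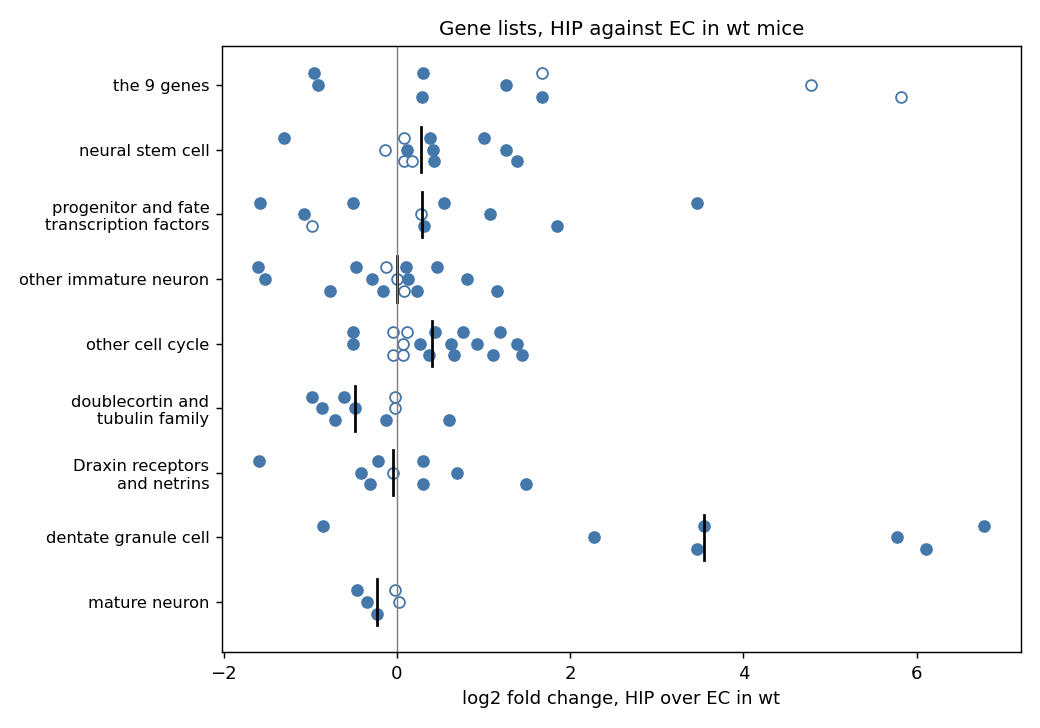
Log2 fold change of HIP over EC in wt mice (horizontal axis) for the genes of each list, where filled points passed edgeR's adjusted threshold, open points did not, and the black bar is the median of a list. The 9 genes, shown without a median, spread from -0.96 to 5.82, with Eomes, Igfbpl1 and Draxin as open points because they entered the test through the HIP, dentate granule cell markers lie far to the right except for 1 gene, and the doublecortin and tubulin family lies mostly below 0.

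Markers of other cells moved between the regions as well, as did 61.3% of all genes tested in wt and 52.3% in Ts65Dn. Of 7 dentate granule cell markers, 6 were higher and 1, Calb1, lower in the HIP in both genotypes, with Dsp at a log2 fold change of 6.78 and Lct at 6.11 in wt. Of 6 markers of subventricular and olfactory neuroblasts, 1 was higher and 1 lower in the wt HIP, and their summed level was 36.7 to 52.7 CPM in the wt HIP and 41.8 to 48.1 CPM in the wt EC. Cajal-Retzius cells can also express Eomes. Of the 3 of their markers tested, Trp73 (log2 fold change 3.75, SE 0.20, adjusted p = 1.65e-07) and Ndnf (0.55, SE 0.13, adjusted p = 0.00386) were higher in the wt HIP and Reln was lower (-1.12). Lhx1 and Lhx5 did not pass the filter, and Lhx5 was at 0 in all wt EC libraries. All 5 microglial and all 5 endothelial markers were lower in the wt HIP, 3 of 5 markers of mature neurons were lower and none higher, and of 6 markers of oligodendrocyte precursors, which divide in the adult brain, 3 were higher and 2 lower. Of 5 astrocyte markers 3 were higher and 2 lower, and all 5 markers of choroid plexus and ependyma were higher. The part of these cell types in the differences of the 9 genes was not tested.

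Between genotypes, 1 gene of these pathway lists passed edgeR's test. Tubb4a, a beta tubulin of oligodendrocytes and neurons, was higher in the Ts65Dn HIP, at a log2 fold change of 0.30 (SE 0.06, adjusted p = 0.0299), and at 0.18 in the EC (adjusted p = 0.0614). In the HIP 0 of 20 other cell cycle genes tested were called, and in the EC 0 of 18, against 1.04% and 2.5% of all genes tested. Among the cell type markers, P2ry12 of microglia was lower in Ts65Dn in the HIP (log2 fold change -0.27, adjusted p = 0.0422) and in the EC (-0.45, adjusted p = 0.0226), and the calcium-binding Calb1 was lower in the EC (-0.31, adjusted p = 0.00922). The summed level of the dentate granule cell markers was 582.4 to 696.2 CPM in the wt HIP and 506.8 to 781.1 CPM in the Ts65Dn HIP. Of these 7 markers, 0 differed between genotypes in the HIP by edgeR, against 1.04% of all genes tested. DESeq2 called Tdo2 (log2 fold change -0.41, adjusted p = 0.00768) and Calb1 (-0.30, adjusted p = 0.0113) lower in the Ts65Dn HIP. These counts depended on the tool and on 1 mouse. Over all pathway and marker lists, calls numbered 2 for the HIP and 2 for the EC by edgeR, against 7 and 8 by DESeq2. Without the mouse labelled Ts65Dn replicate 3 edgeR called 2 and 5, among them Cd24a, a surface protein of immature neurons, which was then higher in the Ts65Dn EC (log2 fold change 0.56, SE 0.13, adjusted p = 0.0402) and was named after its value was seen. No list gene passed the interaction test.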

How the data were processed

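The 24 RNA-Seq libraries, from the HIP and the EC of 12 mice, were grouped by the sample labels. Per the methods, the authors used Hisat2 to map single-end 50 bp reads on GRCm38 (Ensembl release 99) and HTSeq-count to count them per gene. The deposited table holds whole-number raw counts, as its values show, although the methods speak of normalized values. The submitters' processing notes name bcl2fastq 2.17.1.14. The versions of Hisat2 and HTSeq-count and the strand setting were not given in the sources used here. The labels name a stranded mRNA kit, whereas the methods name a total RNA kit with Ribo-Zero and call the extracted molecules polyA RNA. Every count column was used, and each row names a gene. The deposited tables of the authors' own comparisons hold, from DESeq2, mean normalized counts, log2 fold changes and p-values, and, from FCROS, ratios, scores and p-values. They were not used.

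Identifiers were looked up in GENCODE vM21, also on GRCm38, which holds 99.6% of the 55385 genes, and exon length is the union of its exons. Counts were tested with edgeR 4.0.16 (R 4.3.3), with filterByExpr, TMM and a Benjamini-Hochberg adjusted p under 0.05 over all genes tested, on 6 against 6 libraries within a region or genotype. Fits between regions and of the interaction had a term for each mouse, which the titles give. Deviations from the group means correlated between the HIP and EC of the same mouse with r from 0.178 to 0.426. CPM were scaled over all 24 libraries. No library repeated another of its own group, and libraries of different groups were not compared in this check. The alternatives were DESeq2 1.42.0, edgeR with its size factors, all genes unfiltered, only genes with 10 or more counts in each library, an adjusted p under 0.1, a minimum fold of 1.2, another treatment of the replicate number or mouse, limma 3.58.1 (voom with duplicateCorrelation, for the interaction) and leaving out each mouse. Gene lists under DESeq2, its size factors and without the mouse labelled Ts65Dn replicate 3, the correlations between members, the counting intervals and the promoter letters were chosen after seeing the data.

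The 9 genes and the lists were chosen with earlier results of these data known. Named were the 9 genes, at most 4 genes of each pathway list with the lowest adjusted p among those called, and the 5 genes most correlated with Dcx and with Mki67. Markers were named by their lists, and those named singly were chosen after their values were seen. Permutation tests used 100000 resamples (scipy 1.17.1). The fits were tested on simulated counts. p-values measure the spread between mice, and counting intervals cover counting error only.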

Additional observations from a re-analysis of the deposited data

Results flagged for a closer look

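In each of 36 groups (9 genes, 4 groups of 6 libraries), the gap between the highest or lowest library and its nearest neighbour was compared with the range of the group. Chance passes Dixon's limit in about 1 in 20 groups, which is 1.8 of 36 here, and 4 passed. Dcx stood apart at 22.3 CPM in the HIP of the mouse labelled Ts65Dn replicate 3, whose triplicated genes were at the wt level. Sox11 stood apart at 14.9 CPM in the EC of wt replicate 6. Igfbpl1 did so at 0.292 CPM in the EC of Ts65Dn replicate 6, on 9 counts, and Top2a at 1.0 CPM in the EC of Ts65Dn replicate 4, on 30 counts. The cause was not tested for any of them.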

How the results depend on the processing

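The number of the 9 genes called stayed within 1.5 times the reported number in all 84 alternatives. Including Eomes, Igfbpl1 and Draxin, which entered through the HIP, that number was 9 between regions in wt and 7 in Ts65Dn, and with 10 or more counts in every library, which leaves these genes out, 6 and 5. Leaving out each mouse gave 8 to 9 genes called between regions in wt, 5 to 7 in Ts65Dn and 0 in both genotype comparisons and the interaction. Single values changed direction where they were near 0. Between genotypes in the HIP, Sox11 ranged from -0.107 to 0.00358 (without Ts65Dn replicate 5) and Draxin from -0.00833 (without Ts65Dn replicate 3) to 0.192 when each mouse was left out. Sox11 between regions in Ts65Dn ranged from -0.0232 (without Ts65Dn replicate 3) to 0.141. The interaction of Dcx (-0.00242) was 0.000299 by DESeq2, 0.00133 with DESeq2 size factors and 0.000232 with at least 10 counts in every library, and ranged from -0.16 to 0.0833 when each mouse was left out.

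Ts65Dn and wt mice shared only a number: the deviations of same-numbered libraries correlated with r of -0.198 to 0.153 for HIP and of -0.0812 to 0.166 for EC libraries. With the replicate number as a block, 0 of the 9 genes were called between genotypes in either region, and the count over all genes fell from 181 to 29 for the HIP and 426 to 36 for the EC. Without the term for each mouse (no replicate block) 8 genes were called between regions in wt and 6 in Ts65Dn. Counts over all genes also moved with the tool and the mice. DESeq2 called 575 HIP genes and 1078 EC genes, an adjusted p under 0.1 gave 389 and 1025, and leaving out each mouse gave 54 to 318 and 90 to 685, with the HIP count highest without Ts65Dn replicate 3 and lowest without Ts65Dn replicate 6. Without the filter on low counts the EC count was 275 and that of the interaction 37. DESeq2 size factors moved the median log2 fold change of all genes by at most 0.00928 and turned the direction of 0 list genes called. In the EC, Igfbpl1, Eomes and Draxin rest on few counts.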
